A study of Mus musculus with 10 samples.

Results

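The mitochondrial ribosomal protein genes are the nuclear genes named Mrpl (large subunit) and Mrps (small subunit), and their mRNA was compared between mouse embryonic fibroblasts kept at 2% and at 10% CO2. Members were all genes annotated as protein-coding whose symbol begins with Mrpl or Mrps and a number, which gave 78 of the 78317 genes in the count table, 21807 of them protein-coding. Of these, 49 carry a large-subunit name and 29 a small-subunit name. The 6 processed pseudogenes that share such a name were left out. All 78 passed the filter on low counts, and none was at 0 in any library.

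The cells were wildtype fibroblasts immortalized with T-antigen, labelled as 1 cell line, and nothing else about their genotype is labelled. The 10% CO2 level was the one the labels give for routine growth in complete medium, and the other level was 2% CO2, both held for 24 h in the treatment. Each level had 5 libraries, with replicates 1 to 3 in batch 1 and replicates 4 and 5 in batch 2. What a batch stands for, and whether the replicates were separate cultures, is not labelled, so each p-value reflects library-to-library spread that could be technical.

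Mitochondria keep their own ribosomes, which make the few hydrophobic respiratory chain subunits encoded in mitochondrial DNA. Their ribosomal RNAs come from mitochondrial DNA, while every ribosomal protein is encoded in the nucleus, translated in the cytosol and imported. Some of these proteins descend from bacterial ribosomal proteins and others occur only in mitochondrial ribosomes. Assembly needs additional RNA-modifying enzymes, helicases and GTPases that are not part of the finished particle.

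The libraries differed widely in depth, from 178676 counts in 2% CO2 replicate 2 to 12354538 in 2% CO2 replicate 4. A single count was worth 5.597 CPM (counts scaled to the library total) in the shallowest library, where members had between 3 and 74 counts each. None of 9 fibroblast markers was at 0 in every library, and their sum ran from 4689 to 8751 CPM at 2% CO2 and from 8563 to 13263 CPM at 10% CO2. Marker sums of epithelial, leukocyte, endothelial, muscle and neural cells did not exceed 14.97 CPM in any library, with Adgre1 (macrophage) and Sox10 (neural crest) at 0 throughout. The fibroblast marker sum was lower in most 2% libraries, but single markers differed. Col3a1 ran from 61.6 to 146 CPM at 2% and from 246 to 298 at 10%. S100a4 went the other way, from 99.9 to 164 CPM at 2% and from 40.3 to 91.2 at 10%. The ranges of the other markers overlapped, and Pdgfra did not exceed 5.93 CPM in any library. The part of the marker sum in the results was not tested. In bulk RNA, fewer cells of a type and less RNA per cell cannot be told apart.

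Some of the mitochondrial ribosomal protein transcripts were modestly higher at 2% CO2, and none was called lower with both batches together. With batch as a covariate, 18 of the 78 members were called higher at 2% CO2 and none lower (edgeR quasi-likelihood test, Benjamini-Hochberg adjusted p under 0.05 over 13198 genes). Over all genes tested, 5.3% were called higher and 6.73% lower. The 18 comprised 12 of 49 large-subunit and 6 of 29 small-subunit genes. The median log2 fold change (2% over 10%) was 0.21 for the large and 0.27 for the small subunit, beside 0.00 over all genes tested. Of the 78 members, 71 had a positive value, and the 60 that were not called ranged from -0.16 to 0.42. At an unadjusted p under 0.05, 35 members were higher and 0 lower. DESeq2 called 21 higher (5.69% of all genes) and limma-voom 18 (5.43%), and neither called any lower. Without a batch term no member was called (11 large- and 6 small-subunit genes higher and 0 lower at an unadjusted p under 0.05; 0.947% of all genes called higher). With library totals as the only scaling, 17 large-subunit and 14 small-subunit genes were called higher and 0 lower, beside 7.81% of all genes higher; that scaling moved the median of all genes to 0.07 and the share of called genes that were higher from 44.1% to 62.7%.

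**Figure D1:**
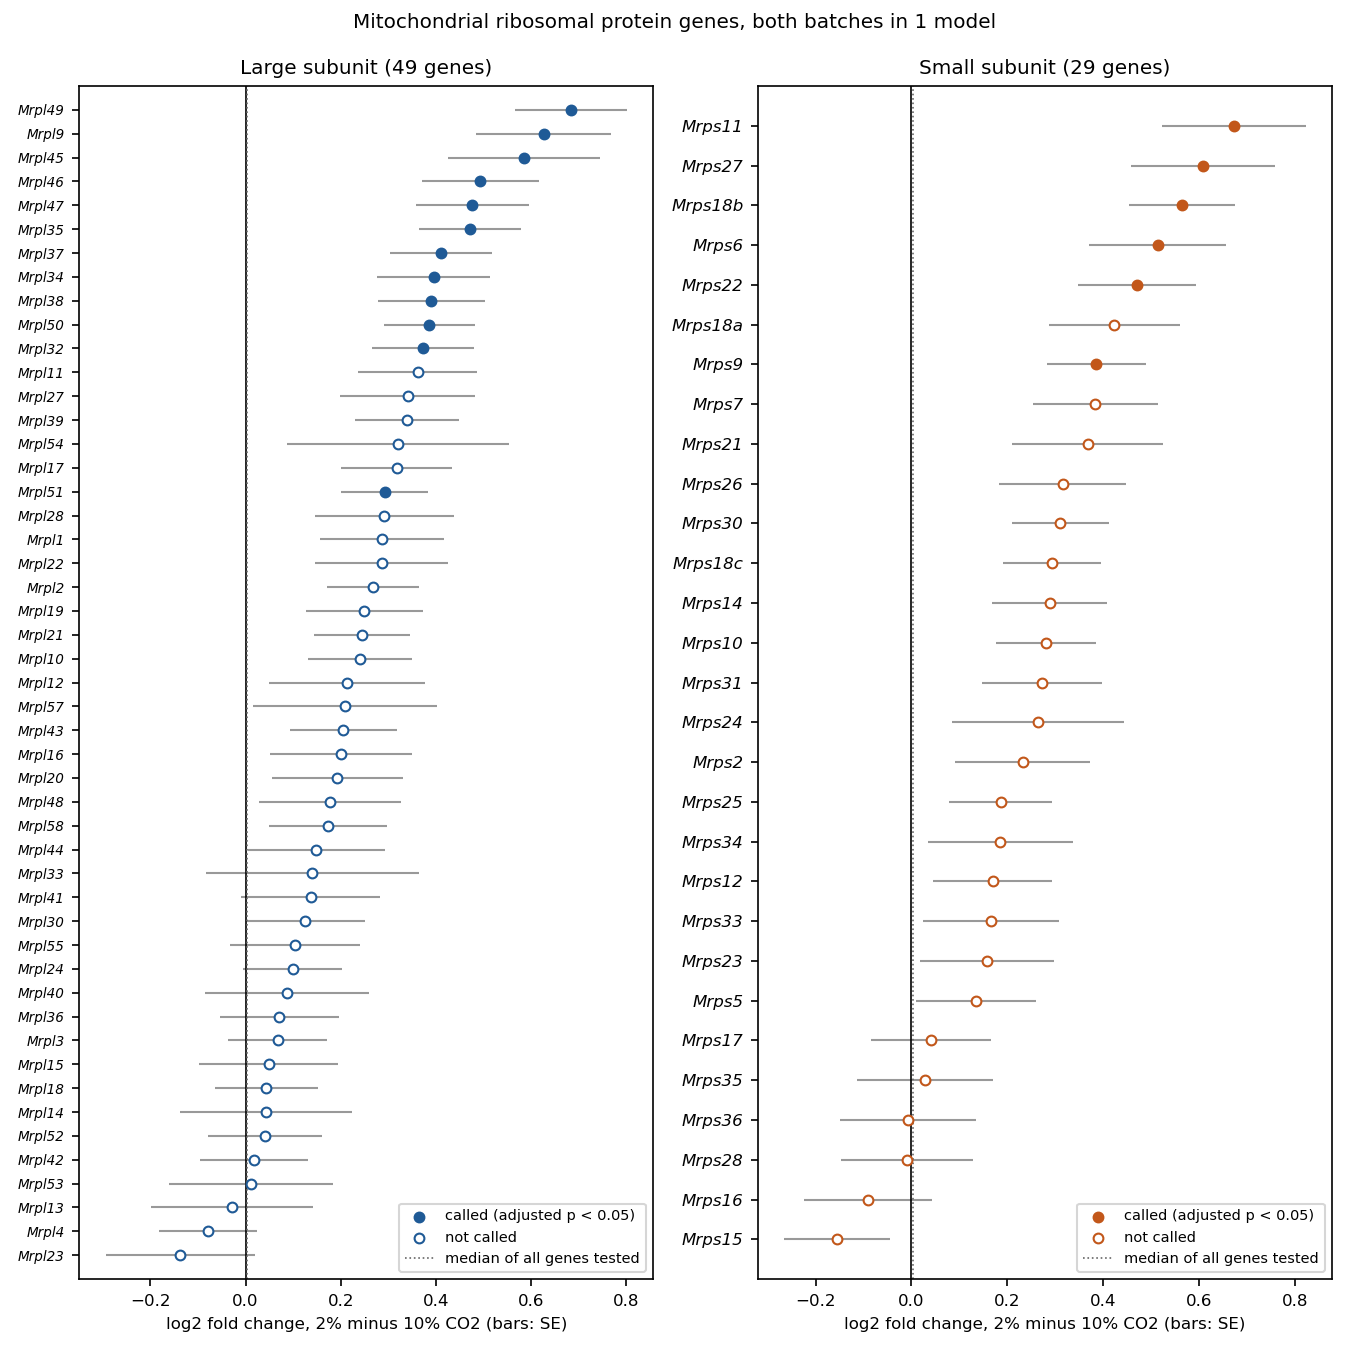
Log2 fold change (2% minus 10% CO2, x axis) of each of the 49 large-subunit (left) and 29 small-subunit (right) genes with its standard error, from 5 libraries a level with batch as a covariate. Filled points mark the 12 and 6 genes called at an adjusted p under 0.05, all to the right of 0.

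The result leaned on single libraries. Without 2% CO2 replicate 1, 7 members were called (3.52% of all genes higher), 52 of 78 were positive, and the medians fell to 0.07 (large) and 0.13 (small), while 3 members were lower at an unadjusted p under 0.05. Without 10% CO2 replicate 4, 6 were called (2.04% of all genes). Without 10% replicate 3, 11 were called (3.37%), and without 2% replicate 4, 10 (3.09%). The other leave-one-out fits called between 14 and 21, beside 534 to 703 of 13066 to 13771 genes higher. With the 3 shallowest libraries left out (2% replicates 2 and 3 and 10% replicate 5), 21 were called (4.0% of all genes higher) and the medians were 0.32 and 0.34.

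Among large-subunit genes that occur only in mitochondrial ribosomes, 7 of 21 were called higher, beside 5.3% of all genes tested. The median log2 fold change of the 21 was 0.29, and all 21 were positive. Mrpl49 encodes one of these mitochondria-specific proteins and had the highest fold change of the large subunit. Mrpl49 measured 64.6, 54.4, 63.5, 39.0 and 37.2 normalized CPM in replicates 1 to 5 at 10% CO2 and 115, 63.0, 104, 60.6 and 53.3 at 2% CO2. The 2% libraries were higher in both batches except 2% replicate 2, which lay within the 10% range of its batch. The log2 fold change of Mrpl49 was 0.68 ± 0.12 (SE), with 0.78 in batch 1 and 0.57 in batch 2 (edgeR adjusted p = 0.000939). Mrpl49 stayed called when any 1 library was left out (highest edgeR adjusted p = 0.00684).

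Mrpl45 lies at the exit of the peptide tunnel and links the ribosome to the inner membrane. Mrpl45 measured 59.8, 62.0, 58.1, 80.4 and 64.8 normalized CPM in replicates 1 to 5 at 10% CO2 and 96.8, 26.3, 66.2, 148 and 113 at 2% CO2. Both batch 2 values at 2% stood above both at 10%, whereas in batch 1 the 2% libraries spanned the range on either side of the 10% libraries; 2% replicate 2 rests on 5 counts. For Mrpl45 the log2 fold change was 0.59 ± 0.16 (SE), with 0.41 in batch 1 and 0.80 in batch 2 (edgeR adjusted p = 0.0259). Without 10% replicate 3, 10% replicate 4, 10% replicate 5, 2% replicate 1 or 2% replicate 4, Mrpl45 was no longer called (highest edgeR adjusted p = 0.117).

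Mrpl46 and Mrpl38 belong to the central protuberance of the large subunit. Mrpl46 measured 47.3, 39.0, 45.2, 30.9 and 33.6 normalized CPM in replicates 1 to 5 at 10% CO2 and 72.8, 47.3, 70.0, 42.7 and 35.1 at 2% CO2. For Mrpl46, 2% replicate 2 was level with the highest 10% value of batch 1 and the other 4 libraries lay above the 10% libraries of their batch. Mrpl46 differed by a log2 fold change of 0.49 ± 0.12 (SE), with 0.66 in batch 1 and 0.31 in batch 2 (edgeR adjusted p = 0.0143). Without 2% replicate 1, Mrpl46 was no longer called (highest edgeR adjusted p = 0.0987). Mrpl38 measured 82.2, 81.3, 82.6, 68.0 and 75.6 normalized CPM in replicates 1 to 5 at 10% CO2 and 126, 68.3, 88.9, 93.5 and 94.1 at 2% CO2. For Mrpl38, 2% replicate 2 was the lowest of the 6 batch 1 libraries, and the other 4 libraries at 2% were higher than every 10% library. Its log2 fold change was 0.39 ± 0.11 (SE) (edgeR adjusted p = 0.0298; 0.38 in batch 1 and 0.43 in batch 2). Without 10% replicate 1, 10% replicate 3, 10% replicate 4, 2% replicate 1, 2% replicate 4 or 2% replicate 5, Mrpl38 was no longer called (highest edgeR adjusted p = 0.163).

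Mrpl37, Mrpl50 and Mrpl51 are further proteins that occur only in mitochondrial ribosomes. Mrpl37 measured 58.7, 50.9, 54.2, 48.6 and 48.0 normalized CPM in replicates 1 to 5 at 10% CO2 and 78.4, 47.3, 64.3, 67.2 and 65.3 at 2% CO2. Again 2% replicate 2 was below the 10% libraries of batch 1 and the remaining 4 were above all 10% libraries. The log2 fold change of Mrpl37 was 0.41 ± 0.11 (SE), with 0.38 in batch 1 and 0.46 in batch 2 (edgeR adjusted p = 0.0184). Without 10% replicate 4, 2% replicate 1 or 2% replicate 4, Mrpl37 was no longer called (highest edgeR adjusted p = 0.0954). Mrpl50 measured 67.3, 67.9, 61.3, 79.7 and 78.0 normalized CPM in replicates 1 to 5 at 10% CO2 and 90.0, 84.0, 92.7, 103 and 92.8 at 2% CO2. For Mrpl50, each 2% library exceeded each 10% library. For Mrpl50 the log2 fold change was 0.39 ± 0.10 (SE), with 0.47 in batch 1 and 0.32 in batch 2 (edgeR adjusted p = 0.0134). Mrpl50 stayed called when any 1 library was left out (highest edgeR adjusted p = 0.0469). Mrpl51 measured 82.2, 81.2, 78.0, 77.5 and 85.2 normalized CPM in replicates 1 to 5 at 10% CO2 and 103, 99.8, 102, 90.8 and 96.9 at 2% CO2. Mrpl51 also separated the levels completely, with the smallest called difference of all members. Mrpl51 differed by a log2 fold change of 0.29 ± 0.09 (SE), with 0.36 in batch 1 and 0.25 in batch 2 (edgeR adjusted p = 0.0456). Mrpl51 stayed called in 1 of the 10 fits that left out 1 library, without 10% replicate 5, and the highest edgeR adjusted p was 0.152.

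Large-subunit genes with a bacterial counterpart, counted by where the protein sits and not by name, numbered 30. Of these, 5 were called higher (median log2 fold change 0.23), beside 5.3% of all genes tested. No test compared them with the mitochondria-specific genes. Mrpl9 encodes the counterpart of bacterial L9. Mrpl9 measured 34.3, 36.8, 38.9, 18.6 and 14.4 normalized CPM in replicates 1 to 5 at 10% CO2 and 46.4, 63.0, 39.7, 37.7 and 31.6 at 2% CO2. The levels did not overlap within either batch, and batch 2 was lower than batch 1 at both levels. In batch 1 the gap was narrow, with 39.7 in 2% replicate 3 against 38.9 in 10% replicate 3. A single count in 2% replicate 3 was worth 1.97 CPM. The log2 fold change of Mrpl9 was 0.63 ± 0.14 (SE), with 0.35 in batch 1 and 0.97 in batch 2 (edgeR adjusted p = 0.00778). Without 10% replicate 4, Mrpl9 was no longer called (highest edgeR adjusted p = 0.0961). Mrpl35 encodes the counterpart of bacterial L35. Mrpl35 measured 86.8, 86.7, 85.9, 62.2 and 76.8 normalized CPM in replicates 1 to 5 at 10% CO2 and 106, 126, 148, 96.1 and 86.2 at 2% CO2. Its values were separated in each batch, and 2% replicate 3 was the highest library. The log2 fold change of Mrpl35 was 0.47 ± 0.11 (SE), with 0.50 in batch 1 and 0.47 in batch 2 (edgeR adjusted p = 0.00781). Without 10% replicate 4, Mrpl35 was no longer called (highest edgeR adjusted p = 0.0591).

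Mrpl47 corresponds to bacterial L29, which sits near the tunnel exit. Mrpl47 measured 47.3, 45.1, 39.5, 38.4 and 51.6 normalized CPM in replicates 1 to 5 at 10% CO2 and 71.6, 63.0, 62.4, 49.8 and 53.7 at 2% CO2. Batch 1 separated the levels, and in batch 2 the 4 values lay close together apart from 10% replicate 4. For Mrpl47 the log2 fold change was 0.48 ± 0.12 (SE), with 0.64 in batch 1 and 0.32 in batch 2 (edgeR adjusted p = 0.0133). Without 10% replicate 4 or 2% replicate 1, Mrpl47 was no longer called (highest edgeR adjusted p = 0.0836). Mrpl32 encodes a protein whose maturation by a mitochondrial protease precedes its assembly into the ribosome. Mrpl32 measured 62.4, 61.1, 73.5, 87.1 and 103 normalized CPM in replicates 1 to 5 at 10% CO2 and 96.8, 99.8, 85.2, 109 and 107 at 2% CO2. It separated the levels within each batch, narrowly in batch 2. Mrpl32 differed by a log2 fold change of 0.37 ± 0.11 (SE), with 0.52 in batch 1 and 0.24 in batch 2 (edgeR adjusted p = 0.0286). Without 10% replicate 1, 10% replicate 2, 10% replicate 4, 2% replicate 1 or 2% replicate 4, Mrpl32 was no longer called (highest edgeR adjusted p = 0.122). Mrpl34 encodes a short basic protein with a bacterial counterpart. Mrpl34 measured 47.3, 41.1, 44.6, 48.3 and 46.8 normalized CPM in replicates 1 to 5 at 10% CO2 and 69.6, 47.3, 58.7, 63.9 and 50.03 at 2% CO2. Its 2% replicate 2 matched the highest 10% value of batch 1. Its log2 fold change was 0.40 ± 0.12 (SE) (edgeR adjusted p = 0.0359; 0.54 in batch 1 and 0.26 in batch 2). Mrpl34 stayed called in 3 of the 10 fits that left out 1 library, without 10% replicate 5, 2% replicate 2 and 2% replicate 5, and the highest edgeR adjusted p was 0.220.

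In the small subunit, 3 of 16 genes with a bacterial counterpart (median 0.27) and 3 of 10 mitochondria-specific genes (median 0.23) were called higher. Over all genes tested, 5.3% were called higher. Mrps11 encodes the counterpart of bacterial S11 in the platform of the small subunit. Mrps11 measured 84.8, 57.9, 66.1, 48.8 and 61.2 normalized CPM in replicates 1 to 5 at 10% CO2 and 152, 110.3, 114, 70.6 and 59.3 at 2% CO2. All 3 batch 1 libraries at 2% exceeded the 10% libraries, while in batch 2 the 2% replicate 5 value fell between the 10% values. The log2 fold change of Mrps11 was 0.67 ± 0.15 (SE), with 0.95 in batch 1 and 0.33 in batch 2 (edgeR adjusted p = 0.00810). Mrps11 stayed called when any 1 library was left out (highest edgeR adjusted p = 0.0459). Mrps6 encodes the counterpart of bacterial S6. Mrps6 measured 50.3, 35.7, 41.2, 35.4 and 33.6 normalized CPM in replicates 1 to 5 at 10% CO2 and 77.6, 84.0, 45.4, 42.2 and 42.2 at 2% CO2. Here 2% replicate 3 lay within the 10% range of its batch and the other 2% libraries were higher. For Mrps6 the log2 fold change was 0.51 ± 0.14 (SE), with 0.73 in batch 1 and 0.28 in batch 2 (edgeR adjusted p = 0.0251). Without 10% replicate 3 or 2% replicate 1, Mrps6 was no longer called (highest edgeR adjusted p = 0.203). Mrps9 encodes the counterpart of bacterial S9, whose tail reaches towards the tRNA. Mrps9 measured 82.9, 79.4, 72.5, 63.0 and 64.8 normalized CPM in replicates 1 to 5 at 10% CO2 and 98.4, 78.8, 88.9, 97.0 and 89.0 at 2% CO2. Batch 2 separated the levels, while 2% replicate 2 lay within the 10% range of batch 1. Mrps9 differed by a log2 fold change of 0.39 ± 0.10 (SE), with 0.26 in batch 1 and 0.56 in batch 2 (edgeR adjusted p = 0.0205). Without 10% replicate 3, 10% replicate 4 or 2% replicate 4, Mrps9 was no longer called (highest edgeR adjusted p = 0.138).

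Mrps27 encodes a pentatricopeptide repeat protein that binds RNA. Mrps27 measured 36.0, 32.6, 28.2, 17.1 and 25.2 normalized CPM in replicates 1 to 5 at 10% CO2 and 54.8, 42.0, 30.3, 33.4 and 26.4 at 2% CO2. Its 2% replicate 3 overlapped the 10% libraries, and batch 2 separated the levels. Its log2 fold change was 0.61 ± 0.15 (SE) (edgeR adjusted p = 0.0130; 0.56 in batch 1 and 0.69 in batch 2). Without 10% replicate 4, 2% replicate 1 or 2% replicate 4, Mrps27 was no longer called (highest edgeR adjusted p = 0.133). Mrps22 encodes a mitochondria-specific protein; human MRPS22 is a known mitochondrial disease gene. Mrps22 measured 59.8, 54.7, 57.1, 42.5 and 59.98 normalized CPM in replicates 1 to 5 at 10% CO2 and 97.6, 94.5, 70.0, 58.9 and 54.7 at 2% CO2. Batch 1 separated the levels, while in batch 2 both 2% libraries lay between the 10% libraries. The log2 fold change of Mrps22 was 0.47 ± 0.12 (SE), with 0.65 in batch 1 and 0.28 in batch 2 (edgeR adjusted p = 0.0181). Without 10% replicate 3, 10% replicate 4 or 2% replicate 1, Mrps22 was no longer called (highest edgeR adjusted p = 0.123).

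Mammals have 3 mitochondrial proteins related to bacterial S18, which occupy different places in the ribosome. Mrps18b was the only one of them called. Mrps18b measured 45.1, 39.1, 37.4, 25.6 and 25.2 normalized CPM in replicates 1 to 5 at 10% CO2 and 59.99, 52.5, 53.0, 41.9 and 37.4 at 2% CO2. All 2% libraries were above the 10% libraries of their batch. For Mrps18b the log2 fold change was 0.56 ± 0.11 (SE), with 0.51 in batch 1 and 0.65 in batch 2 (edgeR adjusted p = 0.00284). Mrps18b stayed called when any 1 library was left out (highest edgeR adjusted p = 0.0330). Mrps18a, which despite its name is part of the large subunit, was not called. Mrps18a measured 54.3, 46.1, 47.1, 36.7 and 43.2 normalized CPM in replicates 1 to 5 at 10% CO2 and 85.6, 68.3, 43.5, 49.5 and 43.6 at 2% CO2. Its 2% replicate 3 was below every 10% library of batch 1. Mrps18a differed by a log2 fold change of 0.42 ± 0.14 (SE), with 0.56 in batch 1 and 0.29 in batch 2 (edgeR adjusted p = 0.05004). Mrps18c occupies the S18 site of the small subunit. Mrps18c measured 108, 90.2, 92.7, 111 and 114 normalized CPM in replicates 1 to 5 at 10% CO2 and 132, 137, 125, 130.0 and 116 at 2% CO2. Every 2% library exceeded every 10% library, but the gene was not called. Its log2 fold change was 0.29 ± 0.10 (SE) (edgeR adjusted p = 0.0718; 0.44 in batch 1 and 0.15 in batch 2).

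**Figure D2:**
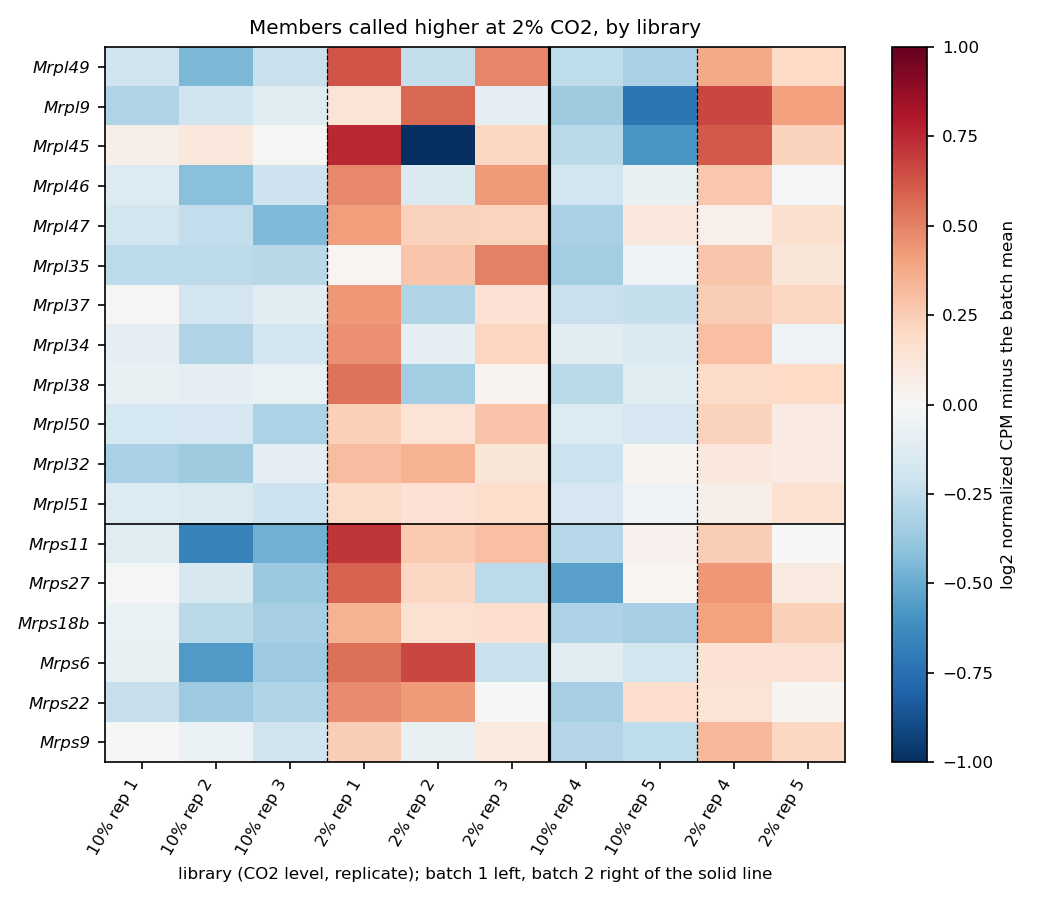
Each row is 1 of the 18 called members and each column a library, coloured by log2 normalized CPM minus the mean of that gene over its batch (red higher, blue lower). The 2% columns are mostly red and the 10% columns mostly blue; 2% replicate 1 is the reddest column of batch 1 and 2% replicate 2, the shallowest library, is mixed.

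Across all 5 libraries a level, the groups did not overlap for 3 members (Mrpl50, Mrpl51 and Mrps18c, all higher at 2%), beside 2.17% of all genes tested above and 3.33% below. Within batch 1, 20 members lay wholly above and 0 below, beside 10.2% and 14.5% of all genes tested. Within batch 2, 28 lay above and 10 below, beside 26.8% and 25.5%. Among the called members, Mrpl9 (in batch 1 by less than 1 count of 2% replicate 3), Mrpl32, Mrpl35, Mrpl50, Mrpl51 and Mrps18b separated the levels in each batch. They were called on these same libraries, and the share of all genes separated in each batch was not counted.

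Several members with defined functions were not called. Mrpl12, Mrpl10 and Mrpl11 form the stalk and its base, where translation factors bind. Their log2 fold changes were 0.21 ± 0.16 (SE) for Mrpl12, 0.24 ± 0.11 (SE) for Mrpl10 and 0.36 ± 0.13 (SE) for Mrpl11 (edgeR adjusted p = 0.457, 0.169 and 0.0690). Mrpl58, a peptidyl-tRNA hydrolase built into the ribosome, measured 0.17 ± 0.12 (SE) (adjusted p = 0.412, edgeR), and Mrpl44, which has an RNase III fold, 0.15 ± 0.14 (SE) (0.570). Mrps12, at the decoding centre, measured 0.17 ± 0.12 (SE) (0.424, edgeR), and Mrps7, which binds the head of the small-subunit RNA, 0.38 ± 0.13 (SE) (0.0624). Mrps30, a large-subunit protein despite its name, measured 0.31 ± 0.10 (SE) (edgeR adjusted p = 0.0527). Mrpl18 and Mrpl41 measured 0.04 ± 0.11 (SE) and 0.14 ± 0.15 (SE) (edgeR adjusted p = 0.870 and 0.617).

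The lowest values were those of Mrpl23 in the large subunit, -0.14 ± 0.16 (SE) (edgeR adjusted p = 0.645), and Mrps15 in the small subunit, -0.16 ± 0.11 (SE) (0.410). Mrpl23 is uncertain because its processed pseudogene Mrpl23-ps1 held 1773 counts over all libraries, 92.0% of the 1928 of Mrpl23, and reads can be divided between the copies. Members with negative values, none of them called, were Mrpl4, Mrpl13, Mrpl23, Mrps15, Mrps16, Mrps28 and Mrps36. Mrps36, whose product is now placed in the oxoglutarate dehydrogenase complex rather than the ribosome, also has processed pseudogenes, and the one with most counts held 24.9% of its counts. If Mrps18a and Mrps30 are moved to the large subunit, where their proteins sit, 12 of 51 large and 6 of 27 small-subunit genes were called, with medians of 0.24 and 0.26.

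The levels were also compared in each batch apart. In batch 1 alone (3 libraries a level), 8 members were called higher and none lower, 4 in each subunit, beside 2.66% of 12275 genes called higher. The median log2 fold change was 0.38 in both subunits and 75 of 78 members were positive. At an unadjusted p under 0.05, 42 members were higher and 0 lower (edgeR quasi-likelihood test). Called there were Mrpl32, Mrpl46, Mrpl47, Mrpl49, Mrps6, Mrps11, Mrps22 and Mrps24. Mrps24, which has a bacterial S3 counterpart, was the only one of these not called with both batches, at 0.61 in batch 1 (edgeR adjusted p = 0.0446) and -0.17 in batch 2 (edgeR adjusted p = 0.581). Leaving out 2% replicate 1 left 1 member called in batch 1, beside 97 of 13343 genes called higher, with medians of 0.16 and 0.11. Without 10% replicate 3 or 10% replicate 2, 2 and 4 were called, beside 102 of 11957 and 178 of 11953 genes higher. Without 2% replicate 3, 15 were called, beside 350 of 13229 genes higher.

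In batch 2 alone (2 libraries a level), Mrpl9 and Mrpl45 were called higher (edgeR adjusted p = 0.0359 and 0.0496), beside 0.848% of 14627 genes. Their log2 fold changes there were 0.97 for Mrpl9 and 0.80 for Mrpl45. The medians were 0.08 for the large and 0.16 for the small subunit, and 44 of 78 members were positive. At an unadjusted p under 0.05, 13 members were higher and 4 lower (edgeR). Without any 1 of the 4 libraries, no member was called in batch 2; the lone library of a level is then assumed to vary like the others.

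Comparing the 2 batches member by member, 43 were higher at 2% CO2 in both, 32 were higher in batch 1 and lower in batch 2, 1 was lower in batch 1 and higher in batch 2, and 2 were lower in both. All 18 called members were higher in both batches, but they were picked by a fit of these same libraries, which favours that. Spearman's rho between the 2 batches' log2 fold changes was 0.31 over the 78 members, as a description, since members share libraries and depth. A test of the CO2 by batch interaction called no member (edgeR quasi-likelihood test; unadjusted p under 0.05 for 1 member with a larger and 12 with a smaller difference in batch 2; limma-voom 0 called), and no gene of the 13198 tested (0.0%). The smallest p among members was that of Mrpl14, with 0.46 in batch 1 and -0.48 in batch 2 (edgeR interaction adjusted p = 0.379). Mrpl33 went from 0.61 to -0.43 (edgeR interaction adjusted p = 0.446).

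**Figure D3:**
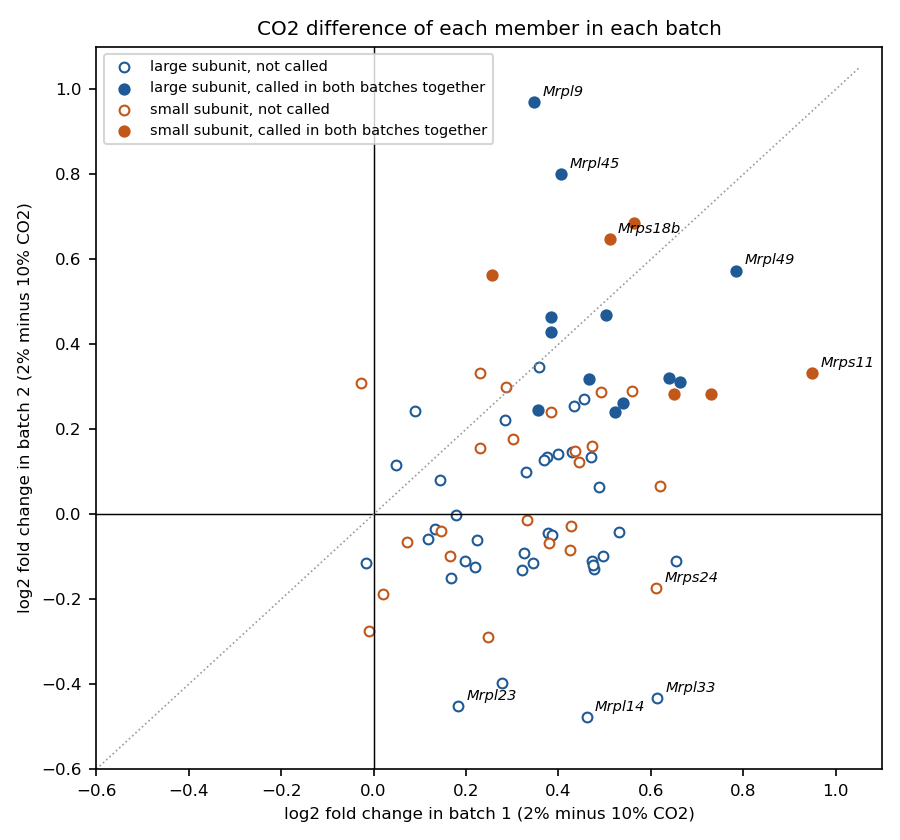
Log2 fold change of each of the 78 members in batch 1 (x axis, 3 libraries a level) and batch 2 (y axis, 2 libraries a level), with the line of equal values dotted. The points lie mostly right of 0 on the x axis but on both sides of 0 on the y axis. The 18 members called from these same libraries (filled) are above 0 in both batches.

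The batches also differed in the members' level, whatever the CO2. Batch 2 minus batch 1, with CO2 in the model, 4 members were called higher and 41 lower, beside 17.4% and 18.5% of all genes tested (edgeR). The medians were -0.36 for the large and -0.38 for the small subunit. Mrpl12 fell furthest between batches, at -1.66 ± 0.18 (SE) (edgeR adjusted p = 5.77e-06). Mrpl12 measured 296, 225, 287, 90.1 and 133 normalized CPM in replicates 1 to 5 at 10% CO2 and 468, 320.3, 291, 96.7 and 92.4 at 2% CO2. All 6 batch 1 libraries stood above all 4 of batch 2. Mrpl20 measured -1.32 ± 0.15 (SE) (edgeR adjusted p = 3.14e-06), and Mrps5, which was higher in batch 2, 0.88 ± 0.12 (SE) (edgeR adjusted p = 2.79e-05).

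Summed over members, the large subunit measured 5701 ± 1103 normalized CPM (SD, n = 3) at 2% and 4627 ± 427 at 10% CO2 in batch 1. In batch 2 the sums were 3875 ± 143 and 3894 ± 501 (SD, n = 2). For the small subunit the batch 1 sums were 2476 ± 445 and 2025 ± 156, and the batch 2 sums 1968 ± 104 and 1922 ± 233. The ratio of 2% to 10% over all members was 1.23 in batch 1 and 1.00 in batch 2. In batch 1, 2% replicate 1 was the highest library for both subunits, at 6975 and 2989 normalized CPM. On library totals with no further scaling, the ratios were 1.28 and 1.096. No test was made on these sums.

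**Figure D4:**
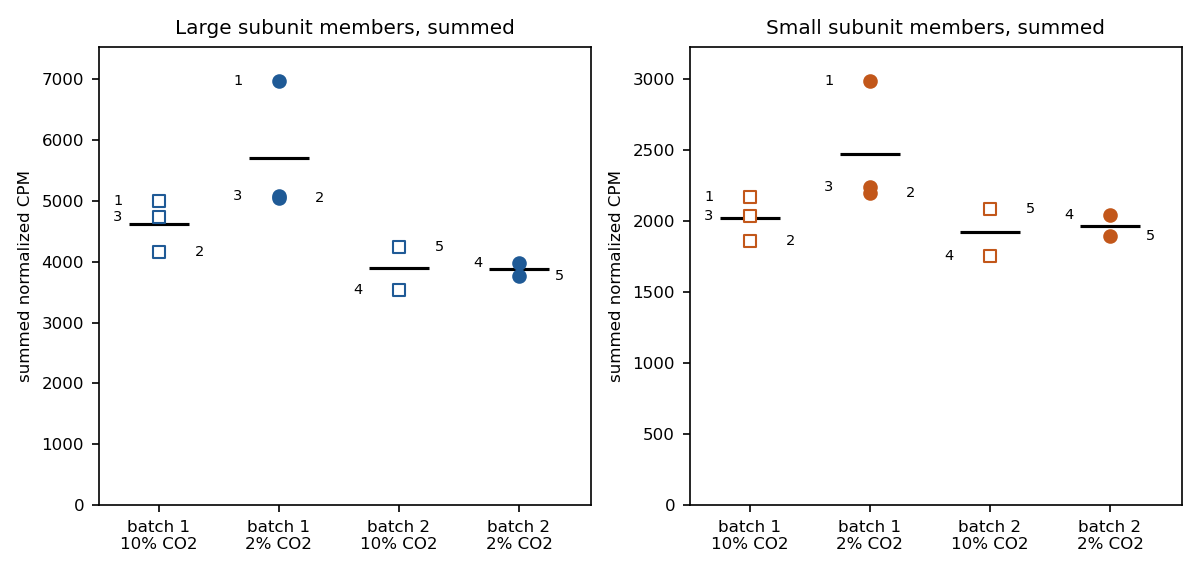
Summed normalized CPM (y axis, from 0) of the large-subunit (left) and small-subunit (right) genes in each library, by batch and CO2 level; numbers are replicates and bars are means. In batch 1 the 2% mean is above the 10% mean, with replicate 1 standing apart, and in batch 2 the means nearly coincide.

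Transcript length moved with the batch 2 values. Members' median annotated transcript was 1052 bases long, against 1973 bases over all genes tested with a length. Split by length into 3 sets of 26 members, the median log2 fold change in batch 2 was -0.06 for transcripts of 405 to 803 bases, 0.09 for 815 to 1418 bases and 0.24 for 1424 to 6073 bases. Of each 26, 8, 15 and 21 were positive in batch 2. In batch 1 the medians were 0.38, 0.39 and 0.38. Spearman's rho with length over the 78 members was 0.41 in batch 2 and -0.03 in batch 1, beside 0.13 and -0.28 over all genes; members share libraries, so this is a description. All tested genes of at most 803 bases had medians of 0.17 in batch 1 and -0.12 in batch 2. The part of length in the CO2 difference was not tested. With length and GC trends removed from each library, which was chosen after seeing the data, all 18 called members were called again, 25 members in all, beside 7.62% of all genes called higher. That setting moved the median of all genes to 0.05. It also moved the share of called genes that were higher from 44.1% to 58.3%.

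**Figure D5:**
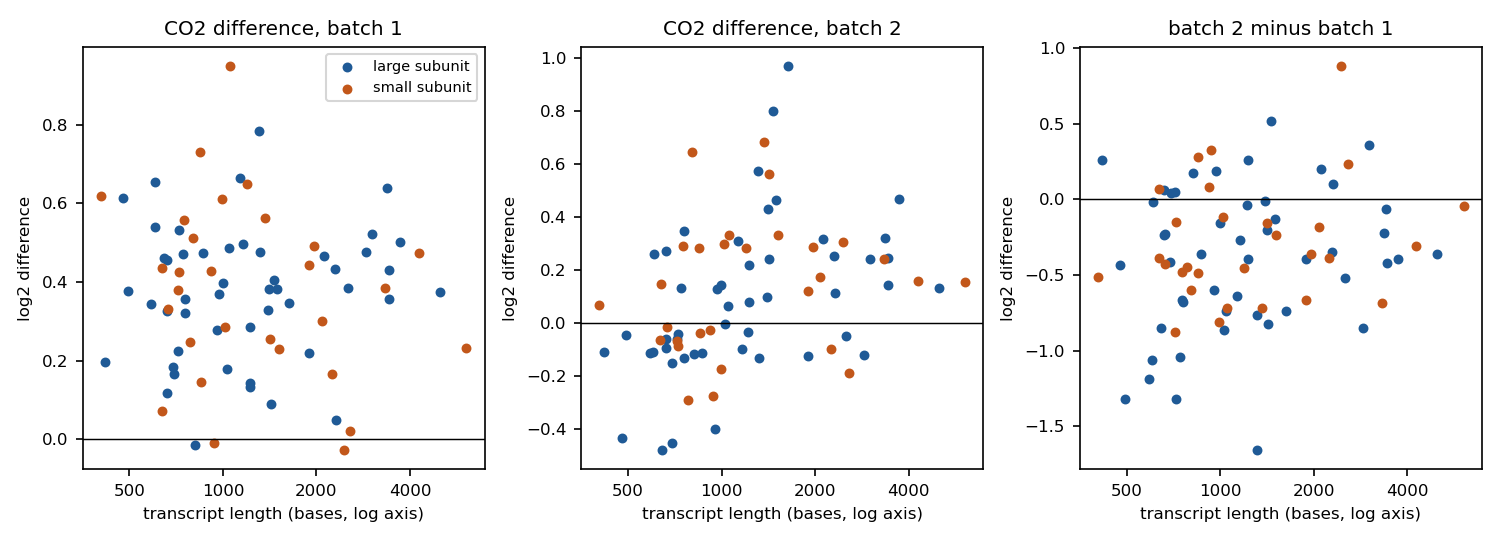
Log2 difference (y axis) against annotated transcript length in bases (log x axis) for the 78 members, by subunit: the CO2 difference in batch 1, the CO2 difference in batch 2, and batch 2 minus batch 1. Shorter transcripts sit lower in batch 2, while batch 1 shows no such slope.

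Promoters of the members were read from RefSeq (GRCm38.p6), as the 300 bases from 250 before to 50 after each gene's start, for the 69 members found there. In all, 5 motifs of factors known to act on nuclear genes of mitochondria, or on stress and growth, were searched on both strands. GCGCANGCG (NRF1) was found in 16 members (23.2%), against 10.6% of 15337 protein-coding genes and 7.03% of all 27025. CCGGAAG (ETS family, which includes GABP) was found in 26 (37.7%) against 14.2% and 9.93%, and AAGATGGCG (YY1) in 8 (11.6%) against 2.40% and 1.64%. CACGTG (E-box) was found in 5 (7.25%) against 9.64% and 8.09%, and TGACGTCA (CRE) in 2 (2.90%) against 2.78% and 2.03%. The letters of the motifs do not show that a factor binds.

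Of the 17 called members with a promoter, 5 held the NRF1 motif, 5 the ETS motif and 4 the YY1 motif, against 11, 21 and 4 of the 52 others. Any of these 3 motifs was in 12 of 17 and 30 of 52. The promoters of the 4 called members with the YY1 motif, and of Mrpl45 and Mrpl9, the 2 members called in batch 2, are shown with the motif letters in capitals, each read 5′ to 3′ on the gene's strand. They lie at chr6:71823735-71824034 on the minus strand (Mrpl35), chr4:107066817-107067116 on the minus strand (Mrpl37), chr7:78782881-78783180 on the plus strand (Mrps11), chr13:99344536-99344835 on the plus strand (Mrps27), chr11:97315466-97315765 on the plus strand (Mrpl45) and chr3:94443086-94443385 on the plus strand (Mrpl9). Mrpl37 also holds an E-box, Mrps27 an ETS motif, Mrpl45 the NRF1 motif at 3 separate positions, and Mrpl9 at 1 position where it reads on both strands. No 2 motifs overlapped in these 6 promoters.
Mrpl35: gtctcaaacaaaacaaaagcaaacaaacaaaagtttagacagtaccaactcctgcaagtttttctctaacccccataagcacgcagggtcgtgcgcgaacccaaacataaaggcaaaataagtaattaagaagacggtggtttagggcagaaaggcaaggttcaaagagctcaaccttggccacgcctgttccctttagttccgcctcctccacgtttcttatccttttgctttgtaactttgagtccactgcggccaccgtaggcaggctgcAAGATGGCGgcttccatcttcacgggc
Mrpl37: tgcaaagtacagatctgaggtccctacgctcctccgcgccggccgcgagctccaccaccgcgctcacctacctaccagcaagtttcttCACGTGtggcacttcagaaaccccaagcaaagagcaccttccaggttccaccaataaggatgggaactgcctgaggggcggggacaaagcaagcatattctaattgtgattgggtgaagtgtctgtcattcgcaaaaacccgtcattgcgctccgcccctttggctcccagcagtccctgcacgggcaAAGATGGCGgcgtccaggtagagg
Mrps11: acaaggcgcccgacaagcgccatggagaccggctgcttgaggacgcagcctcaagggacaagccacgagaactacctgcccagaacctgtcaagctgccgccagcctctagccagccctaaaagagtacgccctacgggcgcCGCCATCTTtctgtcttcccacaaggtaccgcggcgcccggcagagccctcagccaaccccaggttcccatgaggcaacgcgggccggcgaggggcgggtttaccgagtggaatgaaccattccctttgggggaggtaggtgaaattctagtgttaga
Mrps27: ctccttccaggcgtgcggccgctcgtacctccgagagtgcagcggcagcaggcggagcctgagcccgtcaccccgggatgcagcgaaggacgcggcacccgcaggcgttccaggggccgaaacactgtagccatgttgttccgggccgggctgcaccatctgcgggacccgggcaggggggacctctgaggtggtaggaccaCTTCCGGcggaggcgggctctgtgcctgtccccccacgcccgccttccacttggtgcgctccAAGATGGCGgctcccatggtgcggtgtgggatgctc
Mrpl45: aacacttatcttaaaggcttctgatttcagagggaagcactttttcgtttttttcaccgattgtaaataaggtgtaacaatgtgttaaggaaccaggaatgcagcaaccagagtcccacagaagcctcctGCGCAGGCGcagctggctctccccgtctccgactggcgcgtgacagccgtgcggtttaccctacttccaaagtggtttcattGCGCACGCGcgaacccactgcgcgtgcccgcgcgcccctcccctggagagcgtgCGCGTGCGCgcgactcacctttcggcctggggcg
Mrpl9: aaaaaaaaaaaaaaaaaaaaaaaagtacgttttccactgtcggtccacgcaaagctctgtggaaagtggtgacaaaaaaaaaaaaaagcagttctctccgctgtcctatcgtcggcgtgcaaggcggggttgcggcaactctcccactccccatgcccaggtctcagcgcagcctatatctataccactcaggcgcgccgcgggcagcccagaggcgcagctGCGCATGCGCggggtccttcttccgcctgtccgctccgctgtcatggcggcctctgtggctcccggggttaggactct

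Many members start beside another gene on the opposite strand. In the GENCODE M21 annotation, 37 of the 78 members, 11 of the 18 called, have a start site within 1000 bases of an opposite-strand gene's start. Of 28 tested partners that are no members, 3 were called higher and 2 lower (edgeR), beside 5.3% and 6.73% of all genes tested. The partners' median log2 fold change was 0.00, as over all genes tested, and the members beside them had a median of 0.23. Mrps11 and Mrpl46 form such a pair, both called, and share 173 exon bases; with strand not stated in the sources used here, reads from these bases cannot be told apart. Ppp1r10, beside Mrps18b, measured 0.68 ± 0.14 (SE) (edgeR adjusted p = 0.00323), while Ncapd2, beside Mrpl51, measured -0.39 ± 0.11 (SE) (edgeR adjusted p = 0.0222). Mrps6 shares 159 exon bases with Slc5a3 on the same strand, which measured 0.36 ± 0.16 (SE) (edgeR adjusted p = 0.147). Mrpl47, also called, shares 616 exon bases with Ndufb5 and 452 with Actl6a, and the called Mrpl49 shares 91 with Syvn1. These partners lie on the opposite strand and none of them was called. In all, 23 members, 5 of them called, share exon bases with a gene of at least 100 counts.

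Other genes of mitochondrial translation showed a mixed picture. Of 5 mitoribosomal proteins with other names, 0 were called, with a median log2 fold change of 0.14 (edgeR; 1 higher at an unadjusted p under 0.05; DESeq2 and limma-voom 0 called). Without 2% replicate 1 their median was -0.09, with 4 of 5 negative. Dap3, a small-subunit GTP-binding protein, measured -0.00 ± 0.10 (SE) and Ptcd3, also a small-subunit protein, 0.30 ± 0.12 (SE) (edgeR adjusted p = 0.994 and 0.118). Gadd45gip1 measured 0.14 ± 0.16 (SE), Aurkaip1 0.10 ± 0.13 (SE) and Chchd1 0.14 ± 0.21 (SE).

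Of the assembly factors, 7 of 28 were called higher and 0 lower (edgeR), with a median of 0.31. Over all genes tested, 5.3% were called higher and 6.73% lower. At an unadjusted p under 0.05, 13 assembly factors were higher and 0 lower. DESeq2 called 6 higher (5.69% of all genes) and limma-voom 7 (5.43%), with 0 lower in each. Eral1, a GTPase that binds the small-subunit RNA, measured 0.52 ± 0.11 (SE) (edgeR adjusted p = 0.00512). Rpusd4 is a pseudouridine synthase acting on the large-subunit RNA and measured 0.57 ± 0.13 (SE) (edgeR adjusted p = 0.00919). Mrm3, a methyltransferase of the same RNA, measured 0.75 ± 0.18 (SE) (edgeR adjusted p = 0.0122), and Fastkd2, needed for that RNA's stability, 0.52 ± 0.13 (SE) (edgeR adjusted p = 0.0151). Called when each library in turn was left out were Eral1 in 10 of 10 fits, Rpusd4 and Mrm3 in 9 and Fastkd2 in 8. The other called assembly factors kept the call less often, Mrm2 in 5, Mtg1 in 3 and Tfb1m in 1. Their highest edgeR adjusted p values were 0.191, 0.174 and 0.226. Without 2% replicate 1, 2 assembly factors were called (3.52% of all genes higher), with a median of 0.30. Without 10% replicate 4, 2 were called (2.04% of all genes higher), with a median of 0.31. With no batch term, 0 of 28 were called (0.947% of all genes higher).

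None of 18 mitochondrial translation factors was called (edgeR; 3 higher and 0 lower at an unadjusted p under 0.05; DESeq2 and limma-voom 0 called), and their median was 0.04. The ribosome recycling factor Mrrf had the smallest adjusted p, at 0.36 ± 0.14 (SE) (edgeR adjusted p = 0.0978), followed by Mtrf1 at 0.47 ± 0.21 (SE), Lrpprc at 0.25 ± 0.12 (SE) and Mtres1 at -0.31 ± 0.13 (SE). Of 23 mitochondrial transcription and RNA factors, 2 were called higher and 1 lower (median 0.21), beside 5.3% and 6.73% of all genes tested. Twnk, the mitochondrial DNA helicase, measured 0.58 ± 0.17 (SE) and Tfam, which packages mitochondrial DNA, 0.33 ± 0.10 (SE) (edgeR adjusted p = 0.0338 and 0.0410). Twnk shares 507 exon bases with the member Mrpl43 on the opposite strand. With strand not stated, reads from these bases cannot be told apart. Grsf1, an RNA-binding protein of mitochondrial RNA granules, measured -0.33 ± 0.10 (SE) (edgeR adjusted p = 0.0434). With 1 library left out, Twnk was called in 4 of 10 fits (highest edgeR adjusted p = 0.231), Tfam in 2 (0.122) and Grsf1 in 2 (0.141). Mterf2 measured 0.75 ± 0.26 (SE) and was not called.

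Of 13 regulators of mitochondrial genes and stress, 10 passed the filter. Of these 10, 3 were called higher and 1 lower, beside 5.3% and 6.73% of all genes tested. Nrf1, which binds the NRF1 motif, measured 0.56 ± 0.12 (SE) (edgeR adjusted p = 0.00592). Ddit3 and Atf4, transcription factors of the stress response to misfolded proteins and amino acid shortage, measured 1.28 ± 0.14 (SE) and 0.51 ± 0.11 (SE) (edgeR adjusted p = 1.55e-05 and 0.00403). Esrra, a nuclear receptor of mitochondrial gene programs, measured -0.46 ± 0.13 (SE) (edgeR adjusted p = 0.0280). Nrf1 kept its call in 9 of 10 fits that left out 1 library and Atf4 and Ddit3 in 10, but Esrra in 4 (highest edgeR adjusted p = 0.111). Esrra was not called with library total scaling, with no filter or with length and GC trends removed. Nor was Esrra called with no batch term or without the 3 shallowest libraries. Ppargc1a, Ppargc1b and Mycn did not pass the filter.

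The 13 mRNAs made from mitochondrial DNA, which these ribosomes translate, had a median of -0.11 (edgeR). Of these, 0 were called higher and 1 lower, beside 5.3% and 6.73% of all genes tested. The exception was mt-Nd6, the only mRNA encoded on the light strand, at -0.97 ± 0.14 (SE) (edgeR adjusted p = 0.000191). The next smallest adjusted p values were those of mt-Nd1 at -0.31 ± 0.12 (SE), mt-Nd4l at -0.32 ± 0.12 (SE) and mt-Atp8 at -0.25 ± 0.12 (SE), none called. Without the 3 shallowest libraries the median was -0.33 and 2 of 13 were called lower. With library total scaling the median was -0.016, beside 0.071 over all genes tested. With length and GC trends removed it was 0.037 with 7 of 13 positive, beside 0.048 over all genes tested. The sign of the median of the 13 thus changed with that setting, which also raised the median over all genes.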

How the data were processed

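Per the labels' protocols, RNA was extracted with beads, and mRNA was reverse transcribed, tagmented, indexed and amplified. Per the submitters' processing notes, reads were handled by the authors with STAR (2.7.11), featureCounts from Subread (2.1.1), SAMtools (1.22.1) and MultiQC (1.32) on GRCm39. Settings, strand handling and gene annotation were not given in the sources used here. As deposited, the estimated counts per gene are not normalized, and 71.0% to 79.2% of a library's nonzero values are whole to within 1e-06. The deposited CPM, made by the authors, equalled CPM computed from the counts and the library total to within 4.78e-05.

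Rounded counts went into edgeR (4.0.16, R 4.3.3; TMM scaling, filterByExpr by CO2 level with a minimum count of 10, and 15 in all libraries together, robust quasi-likelihood test, two-sided, Benjamini-Hochberg adjustment over all genes tested, threshold 0.05) with batch as a covariate, and in each batch alone. Normalized CPM use TMM-scaled library sizes, with no division by length. DESeq2 1.42.0 and limma 3.58.1 (voom), other scalings and filters, no batch term, a replicate block and leaving out libraries were the alternatives. The edgeR fit with both batches was tested on repeated simulated data, where the share of calls that were false averaged somewhat above the threshold; calls close to 0.05 are therefore less secure than their adjusted p reads. Total counts ran from 178676 to 12354538 per library, so 3 counts were worth 16.8 CPM in the shallowest.

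Text names every called member, members called in 1 batch, the highest and lowest of each subunit, members picked for their roles, and up to 4 genes of each other list with the smallest adjusted p. Added after their values were seen were Mrpl14, Mrpl33, Mrpl20, Mrps5, the neighbouring genes, Mrm2, Mtg1, Tfb1m, and Dap3 with the rest of its list. Mrpl7 has no row in the table. Members and lists were chosen with earlier results of these data known. A planned permutation test of the summed level is not given, since no p is reported for a sum over members chosen that way. Transcript lengths and neighbours come from GENCODE M21 (GRCm38), matched by gene ID for all 78 members; no coordinates were taken from it. Python 3.11.15 and matplotlib 3.10.9 made the tables and figures. No library pair was a duplicate deposit. One planned set of cell type markers is not reported here.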

Additional observations from a re-analysis of the deposited data

Results flagged for a closer look

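Mrpl58, the peptidyl-tRNA hydrolase of the large subunit, had 1 library that stood apart within its group. At 10% CO2, replicate 4 measured 43.9 normalized CPM while the other 4 libraries lay between 58.4 and 63.6, so that the gap to the nearest library was 0.734 of the group's range, above Dixon's critical value for 5 libraries. Such a gap was looked for in 70 groups of 5 libraries, and chance gives about 1 in 20.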

How the results depend on the processing

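No member was called lower with both batches under any alternative run. Without a batch term, 0 large- and 0 small-subunit members were called, and 1 gene of the other lists was higher and 0 lower. Library total scaling called 17 large- and 14 small-subunit members higher, 10 large and 5 small in batch 1, and 3 large and 2 small in batch 2. Over all genes it called 1031 of 13198 higher with both batches, 409 of 12275 in batch 1 and 283 of 14627 in batch 2. Genes of the other lists called lower were 1, in place of 3, with library total scaling, with no filter and with length and GC trends removed. Leaving out 1 library gave 3 to 12 large- and 3 to 10 small-subunit members called higher and 0 to 0 lower. The medians were 0.07 to 0.28 and 0.13 to 0.33, and 4 to 13 genes of the other lists were higher and 1 to 3 lower. Over all genes, these fits called 266 to 703 higher and 470 to 1040 lower. In batch 1, leaving out 1 library gave 1 to 7 large- and 0 to 8 small-subunit members higher, beside 97 to 382 of all genes. Same-numbered libraries were not taken as pairs, since the labels do not tie them. The correlations of their deviations were all positive and did not settle whether they are pairs. With the level means removed these were 0.47, 0.09, 0.21, 0.64 and 0.17 (7 of 10 libraries best with their own number), 1 of 5 not over 0.1. With batch means removed too, they were 0.17, 0.10, 0.044, 0.19 and 0.19 (6 of 10). The last 2 are equal by construction, since batch 2 has 2 libraries a level. With the replicate block, 11 large- and 7 small-subunit members were called higher, beside 849 of all 13198 genes. In batch 1 alone the block called 11 large and 5 small higher, beside 399 of 12275 genes. In batch 2 alone it called 6 large and 3 small higher, beside 660 of 14627 genes, against 124 genes without the block. That batch 2 fit, of 2 pairs, also called 2 large-subunit members lower, beside 820 genes, against 143 without the block. These were Mrpl14 (-0.48) and Mrpl33 (-0.43) (edgeR adjusted p = 0.0218 and 0.0472). The cause of these changes was not tested.

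Of 660 values of 33 named members under the alternatives, 549 kept direction and call, 77 lost the call, 28 gained it and 6 changed sign, none of them called. Those were Mrpl41 (-0.040) and Mrpl44 (-0.086) with no batch term, Mrpl23 (0.030) without the 3 shallowest libraries, and Mrpl12, Mrpl18 and Mrpl41 without 2% CO2 replicate 1; leaving out 1 library gave these 3 genes -9.49e-05 to 0.32, -0.051 to 0.086 and -0.064 to 0.20. Depth limits the shallowest libraries most: members had 3 to 74 counts in 2% CO2 replicate 2, and any interval from counts covers counting error only.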
